A study of Solanum lycopersicum and Solanum tuberosum and Capsicum annuum and Nicotiana tabacum with 10 samples.

Results

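Of 339 potato genes that carry a single locus symbol on the cDNA array, 19 had log2 ratios in tomato and pepper leaves that stood apart from those in tobacco, N. benthamiana and petunia leaves. In 7 of them tomato and pepper were higher than the other species and in 12 they were lower. The genes were chosen from the species means themselves. A gene was taken when the means of tomato and pepper were both at least 0.4 above, or both at least 0.4 below, the means of all 3 other species, and when tomato and pepper were under 0.6 apart. Genes whose 5 means were all above 1, all below -0.5 or all within -0.4 to 0.4 were left out. The split between the 2 sets of species is therefore a description of these genes and carries no test. A mean in all 5 species was available for 327 of the 339 genes, and the other 12 could not be judged.

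Potato, tomato and pepper belong to the Solanoideae, a subfamily of the Solanaceae, and potato and tomato share the genus Solanum. Nicotiana, with tobacco and N. benthamiana, and Petunia stand outside that subfamily. RNA of each species was hybridized to cDNA clones from potato, so the reading of a spot reflects both how much transcript a leaf held and how well that transcript paired with a potato sequence. Potato cDNA arrays were used in this way to ask how alike leaf expression is across the family. For a locus symbol the annotation used here gives neither a function nor a sequence, so the genes below are named by symbol only.

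Mature leaves of 5 species, given here with the spelling of the labels, were analysed. These were petunia, tobacco (Nicotiana tabaccum), Nicotiana benthiamana (below N. benthamiana), pepper (Capsicum annuum) and tomato (Lycopersicum esculentum), and they were each compared with mature leaves of potato (Solanum tubersosum) on 2 arrays, 10 arrays in all. All plants were untreated and grown for 4 to 6 weeks at 25°C with 16 h of light. The query species carried Cy3 and potato Cy5 on every array, with 1 potato extract for all arrays of replicate 1 and another for all arrays of replicate 2. The labels do not tell whether both query extracts of a species had plants of their own, and p-values then measure nothing but the spread between these arrays, which may be technical. In whole leaves, fewer cells of a type and less RNA per cell cannot be told apart.

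Each value is a log2 ratio of the 2 channels, in which 0 is equal signal. A positive value likely means a brighter signal in potato. That reading is not stated by the sources used here and rests on the array titles, where potato comes first, and on the skewness of each non-tomato array minus its tomato array, which was positive in 8 of 8 cases (0.0094 to 0.565). "Higher" and "lower" below refer to the log2 ratio as deposited. With the opposite reading the ratios would stay, and a positive value would mean a brighter signal in the query species. Between 93.2% and 97.3% of the locus genes had a value on a given array, and the 2 arrays of a species correlated at 0.871 to 0.941 over the 8723 to 9615 features with a value on both. No pair of arrays correlated below 0.655. Leaf markers could not be checked, since ratios hold no level of a transcript and locus symbols came without descriptions.

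In the 7 genes with higher values in tomato and pepper, the log2 ratios of tobacco, N. benthamiana and petunia were mostly below 0, which on the likely reading is a brighter signal than in potato. In 6 of the 7 the means of these 3 species were all below 0, and in 5 the means of tomato and pepper were both above 0. The median over the 7 genes was 0.61 in tomato and 0.21 in pepper, against -0.83 in petunia, -0.47 in tobacco and -0.40 in N. benthamiana. The split, which is the mean of tomato and pepper minus the mean of the other 3 species, had a median of 1.14, beside -0.067 over all 327 genes.

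LOC102606132, represented by 1 clone, had the largest split of the 19 genes. Its log2 ratios in replicates 1 and 2 were 0.63 and 0.71 in tomato and 0.19 and 0.23 in pepper, against -2.35 and -2.22 in tobacco, -2.29 and -2.05 in N. benthamiana and -2.23 and -2.06 in petunia. All 6 arrays of the other species lay at least 2.24 under the lowest pepper array. The split was 2.64, a 6.25-fold difference between the sets of species, with 2.70 in replicate 1 and 2.58 in replicate 2.

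For LOC102596607, represented by 5 clones, the sets lay on opposite sides of the potato level, with N. benthamiana close to it. Tomato stood at 0.88 and 0.49 and pepper at 1.41 and 1.02, while tobacco had -0.52 and -0.42, N. benthamiana -0.09 and -0.23, and petunia -0.56 and -0.61. The lowest tomato array was 0.58 above the highest array of the other species, and the split was 1.36, or 2.56-fold.

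The means of LOC102577483 also lay on opposite sides of potato. Tomato had 0.72 and 0.49 and pepper 0.75 and 0.76, against -0.52 and -0.19 in tobacco, -0.25 and 0.06 in N. benthamiana and -0.98 and -0.88 in petunia. Petunia was the lowest species in both replicates, and the sets of arrays did not overlap.

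LOC102577582 had ratios near 0 in tomato and pepper and stepwise more negative ratios in the others. The arrays gave 0.06 and 0.46 in tomato, -0.17 and -0.25 in pepper, -0.75 and -0.69 in tobacco, -1.18 and -1.32 in N. benthamiana and -1.67 and -1.52 in petunia. Every species kept its place in that order in both replicates, and the split was 1.21 (2.32-fold).

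One gene of the 7, averaged over its clones, was positive in all species. LOC102589596 had 2.52 and 1.56 in tomato, 1.94 and 1.74 in pepper, 0.26 and 0.79 in tobacco, 1.29 and 1.16 in N. benthamiana and 0.67 and 0.66 in petunia. Tomato replicate 1 was 0.96 above tomato replicate 2, the split was 1.50 in replicate 1 and 0.78 in replicate 2, and the arrays still did not overlap.

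The remaining pair of higher genes stood at the limit of the rule. LOC102577571 had -0.04 and 0.18 in tomato and -0.14 and -0.06 in pepper, with -1.02 and -0.87 in tobacco, -0.40 and -0.60 in N. benthamiana and -0.68 and -0.80 in petunia, and its smallest gap between species means was 0.40. In LOC102577539 the gap was also 0.40, with 0.01 and 0.16 in tomato, -0.12 and 0.21 in pepper, -0.14 and -0.57 in tobacco, -0.11 and -0.70 in N. benthamiana and -0.59 and -1.07 in petunia. Its split was 0.23 in replicate 1 and 0.97 in replicate 2, the widest change between replicates among the 17 genes with all arrays. Its arrays overlapped, because pepper replicate 1 was just under N. benthamiana replicate 1. One of its 2 clones had no value on the second arrays of tomato and pepper, so those arrays averaged fewer spots. That clone was the lower in pepper replicate 1 (-0.36, against 0.12). Neither clone alone reached the margin, with gaps of 0.31 and 0.13. The place of this gene among the 19 thus depended on the missing values.

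**Figure D1:**
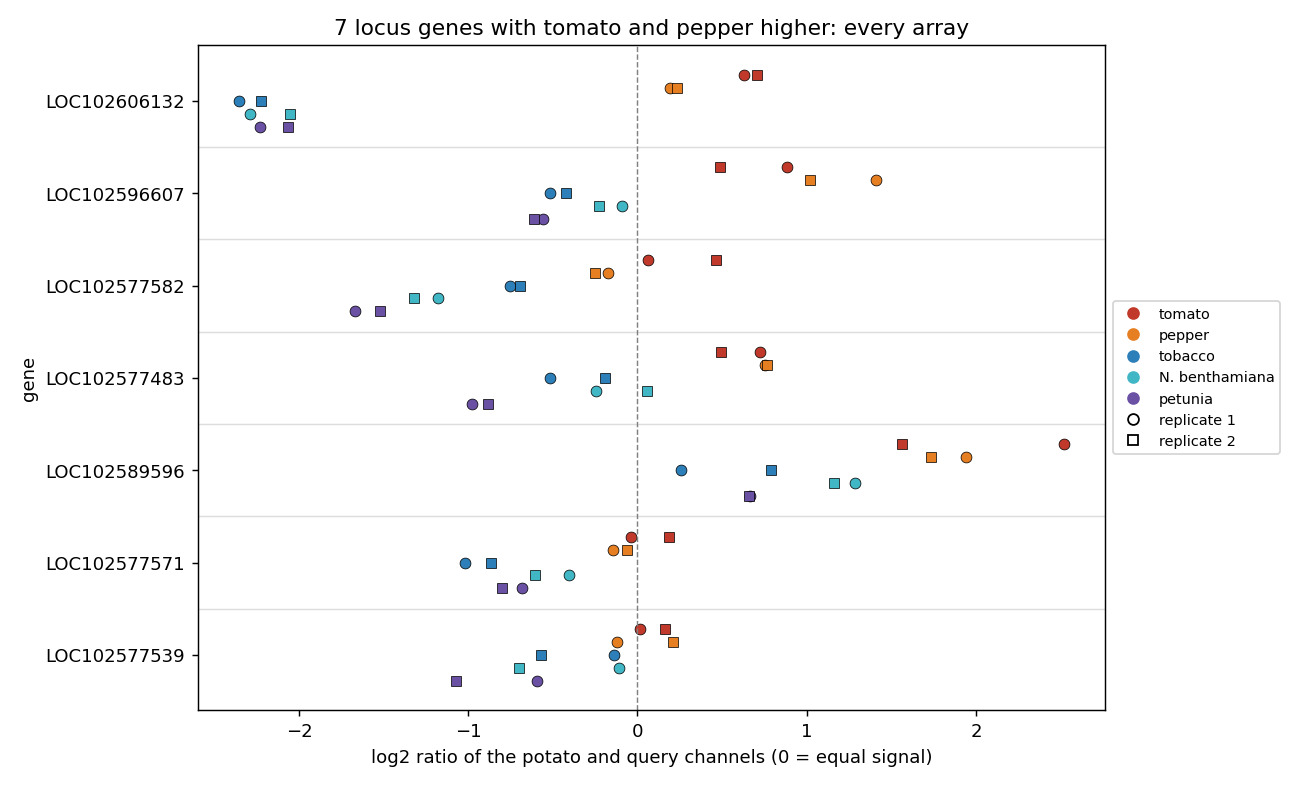
Log2 ratios (x axis) of the 7 genes with tomato and pepper higher (y axis), with 1 point per array, colour for the query species, circles for replicate 1 and squares for replicate 2. LOC102606132 shows the widest space between the sets (2.24), and LOC102577539 is the gene whose arrays overlap.

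In the 12 genes with lower values in tomato and pepper, the other species were mostly positive. The gene means ran from -1.35 to 0.71 in tomato and from -1.86 to 0.83 in pepper. The median over the 12 was 0.18 in tomato and 0.15 in pepper, against 1.09 in petunia, 1.02 in tobacco and 1.20 in N. benthamiana. In 10 of the 12 the means of the 3 other species were all above 0. The means of tomato and pepper were both above 0 in 7 genes. In 2 genes, LOC102596122 and LOC102577529, they were both below 0. The median split was -0.96.

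LOC102580417, with 6 clones, had the largest split in this direction, -1.93 (3.82-fold). Tomato had 0.64 and 0.54 and pepper 0.63 and 0.45, while tobacco had 2.49 and 2.08, N. benthamiana 3.01 and 2.74, and petunia 2.51 and 2.17. N. benthamiana was the highest species in both replicates, and 1.43 separated the highest tomato array from the lowest array of the others.

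In LOC102596122, tomato and pepper were the species that departed from potato. Tomato had -1.04 and -1.67 and pepper -1.61 and -2.11, against 0.11 and -0.28 in tobacco, 0.58 and -0.15 in N. benthamiana and 0.68 and -0.44 in petunia. All 5 species were lower in replicate 2 than in replicate 1, so the species means moved with the replicate, but the split was -1.78 in replicate 1 and -1.60 in replicate 2.

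LOC102577529 gave the closest replicates. Its arrays read -0.64 and -0.75 in tomato, -1.33 and -1.14 in pepper, 0.10 and 0.13 in tobacco, 0.07 and 0.04 in N. benthamiana and -0.24 and -0.25 in petunia. Pepper was the lowest species in both replicates. The mean difference between the 2 arrays of a species was 0.072, against a median of 0.27 over the 19 genes and 0.30 over the other locus genes.

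For 3 genes with splits close to each other, tomato and pepper lay around the potato level and petunia was highest or near it. LOC102594491 had 0.27 and 0.46 in tomato, -0.32 and 0.08 in pepper, 1.22 and 0.80 in tobacco, 1.47 and 1.18 in N. benthamiana and 1.72 and 1.34 in petunia. LOC102594835 had 0.05 and 0.08 in tomato, 0.37 and -0.41 in pepper, 1.02 and 0.85 in tobacco, 1.14 and 1.08 in N. benthamiana and 1.60 and 1.30 in petunia. In both, the order from tobacco through N. benthamiana to petunia was the same in each replicate. The third, LOC102577689, had 0.45 and 0.06 in tomato, 0.01 and 0.13 in pepper, 0.98 and 0.89 in tobacco, 1.35 and 1.22 in N. benthamiana and 1.16 and 1.12 in petunia, so here N. benthamiana was highest. The splits were -1.17 (-1.49 in replicate 1 and -0.84 in replicate 2), -1.14 and -0.96, and none of the 3 had overlapping arrays.

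The arrays of a species differed most in LOC102593050 and LOC102599865, by a mean of 0.73 and 0.77. LOC102593050 had -0.21 and -0.82 in tomato, 0.57 and -0.50 in pepper, 1.35 and 0.78 in tobacco, 1.28 and 0.62 in N. benthamiana and 1.22 and 0.45 in petunia. All species were lower in replicate 2, and pepper replicate 1 was above petunia replicate 2, yet within each replicate tomato and pepper were below the other species. The split was -1.11 and -1.28. LOC102599865 went the other way between replicates, with 0.22 and 0.80 in tomato, -0.16 and 0.68 in pepper, 1.29 and 2.06 in tobacco and 0.56 and 1.44 in petunia, and only 1 value, 1.38, in N. benthamiana. Its arrays overlapped across replicates. The N. benthamiana mean of this gene thus holds the potato extract of replicate 1 only, while the arrays of the other species were all higher in replicate 2.

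The last 4 genes had the smallest splits of the 12. LOC102592788 had 0.69 and 0.74 in tomato, 1.07 and 0.58 in pepper, 2.09 and 1.54 in tobacco, 1.67 and 1.69 in N. benthamiana and 1.57 and 0.97 in petunia. LOC102589825 had 0.12 and 0.04 in tomato, 0.26 and 0.19 in pepper, 0.95 and 0.67 in tobacco, 0.96 and 0.40 in N. benthamiana and 1.59 and 1.24 in petunia. Petunia thus was the lowest of the other 3 species in the former and the highest in the latter. LOC102587932 had -0.03 and 0.26 in tomato, 0.25 and 0.66 in pepper, 0.76 and 1.31 in tobacco, 0.71 and 1.16 in petunia and a single value of 1.30 in N. benthamiana, from replicate 1. One of its 3 clones had values only on the pepper arrays and tobacco replicate 2. The pepper mean of that clone was 0.19, against 0.65 and 0.53 in the other clones, and it lowered the pepper mean of the gene. Its value on tobacco replicate 2 was 0.67, against 1.51 and 1.76. The gaps of the other clones alone were 0.20 and 0.48. Averaged without the partial clone, the gene would fall under the margin of 0.4. Tomato replicate 1 had a value from 1 clone only. LOC102598365 had 0.48 and 0.51 in tomato, 0.60 and 0.35 in pepper, 1.05 and 1.01 in tobacco, 1.36 and 0.46 in N. benthamiana and 1.50 and 0.58 in petunia. The split of LOC102598365, -0.50, was the smallest of all 19, and it was -0.76 in replicate 1 but -0.25 in replicate 2, where N. benthamiana was below tomato.

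**Figure D2:**
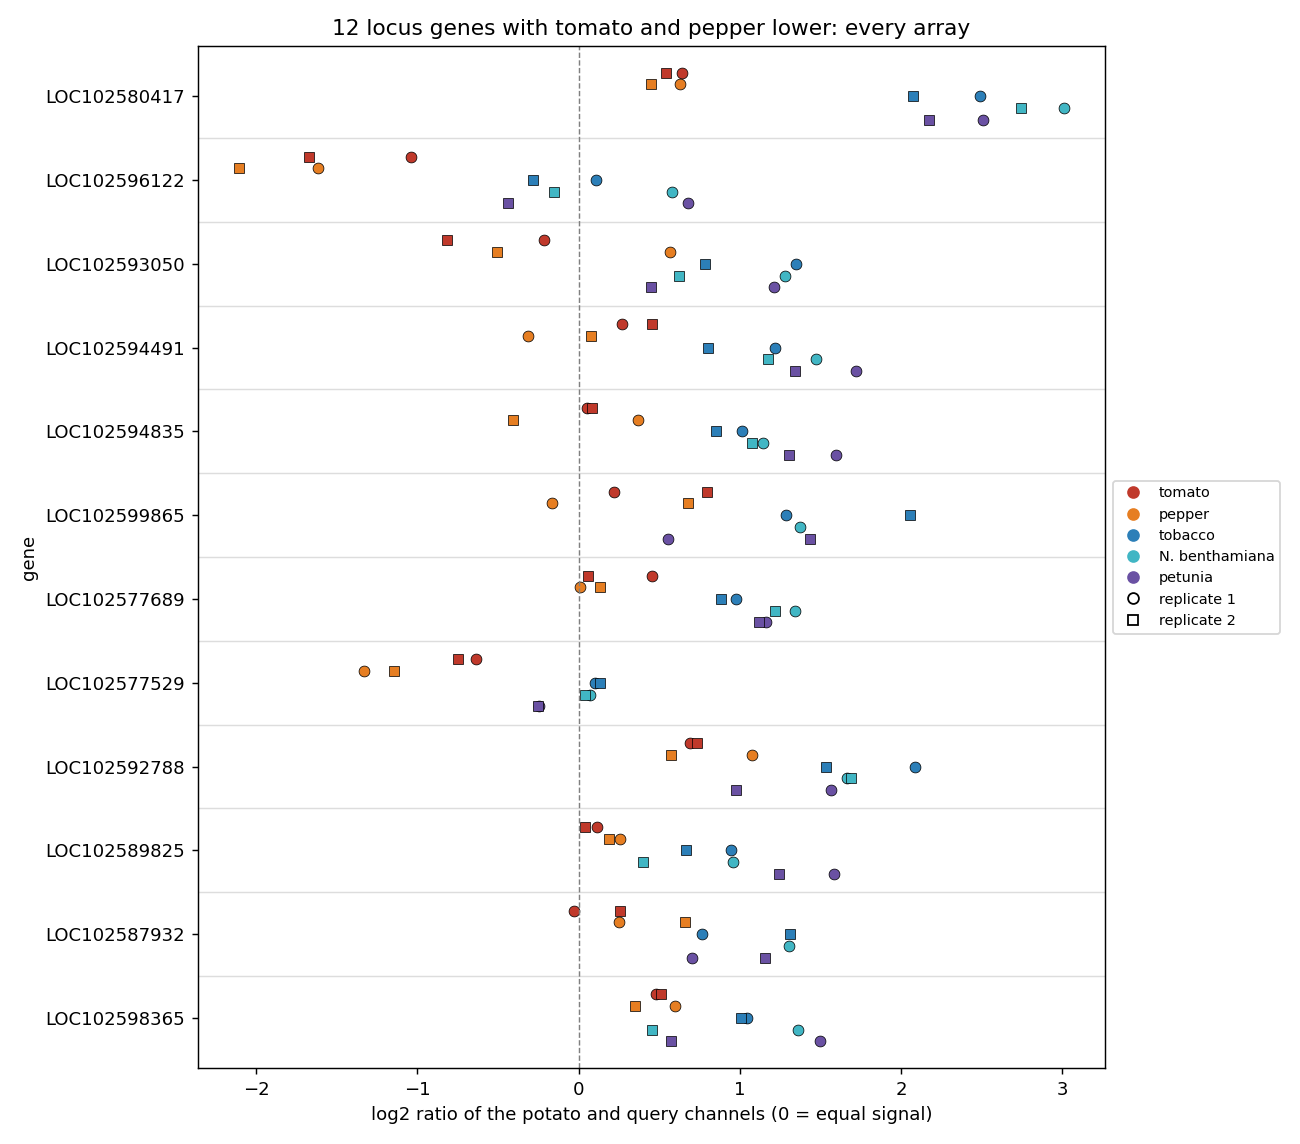
Log2 ratios (x axis) of the 12 genes with tomato and pepper lower (y axis), 1 point per array, with colours for species, circles for replicate 1 and squares for replicate 2. LOC102580417 shows the widest space between the sets (1.43), and in LOC102593050, LOC102599865, LOC102592788 and LOC102598365 the sets overlap.

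The arrays of the 2 sets did not overlap in 14 of the 19 genes, 6 of the higher and 8 of the lower. Over all 327 locus genes this held for 12.2%, with 3.67% higher and 8.56% lower. The rule used these same values, so nothing is read from the contrast. At the limit of the rule, the 3 genes just inside were LOC102577571 and LOC102577539 (gap 0.40) and LOC102598365 (gap 0.41), and the 3 just outside were LOC102605882 (gap 0.40, under the limit before rounding), LOC102590282 (0.39) and LOC102589171 (0.39). A further 11 genes met the margin but had tomato and pepper too far apart, among them LOC102577499 with -2.26 in tomato and -3.05 in pepper. Another 2 met both but were left out by their level.

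In 14 of the 19 genes, the mean of tomato and pepper was nearer to the potato level than the mean of the other species, 4 of the 7 higher and 10 of the 12 lower. That is 73.7%, beside 59.4% of the other 308 locus genes. The rule used these same species means, with limits on their level, so nothing is read from this contrast. The exceptions were LOC102577483, LOC102589596, LOC102596607, LOC102577529 and LOC102596122. Weaker pairing of a query transcript with the potato clone and a lower transcript level cannot be told apart in these ratios, and a dye effect of a gene cannot be told apart from a difference between potato and the query species.

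Clones of a gene were not named by the rule, which averaged all spots of a symbol. A single clone stood for 9 genes, and 10 genes had several, with 33 clones among them. A split could be computed for 32 of these clones, and all 32 had the sign of their gene. Of these, 26 were themselves apart by at least 0.4. Clones and gene share the same spots, so this agreement was partly built in. Among the other locus genes with several clones, 84.8% of 400 clones had the sign of their gene, and of the 107 whose gene had a split as large as the smallest among the 19, 106 did.

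The 6 clones of LOC102580417 had splits from -2.46 to -1.56, and the 5 of LOC102596607 from 1.20 to 1.71. Within LOC102589596 the levels differed more than the split. One clone stood at 0.87 in tomato and -0.02 in pepper, and the other clones at 2.70 and 2.56 in tomato and 2.78 and 3.11 in pepper. Their splits were 0.80, 1.26 and 1.53. In LOC102589825, 3 clones had tomato means of 0.14 to 0.58, whereas the fourth had -0.78 in tomato and -1.03 in pepper with values from -0.13 to 0.33 in the other species. The splits of these 4 clones were -0.74, -0.55, -0.97 and -0.96. Thus clones of a gene could sit at different levels against potato and still have splits of the same sign. The sets of species were not apart in every clone, however. In 1 clone of LOC102589825 pepper (0.53) was above N. benthamiana (0.48), and in another they were nearly equal (0.77 and 0.78).

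**Figure D3:**
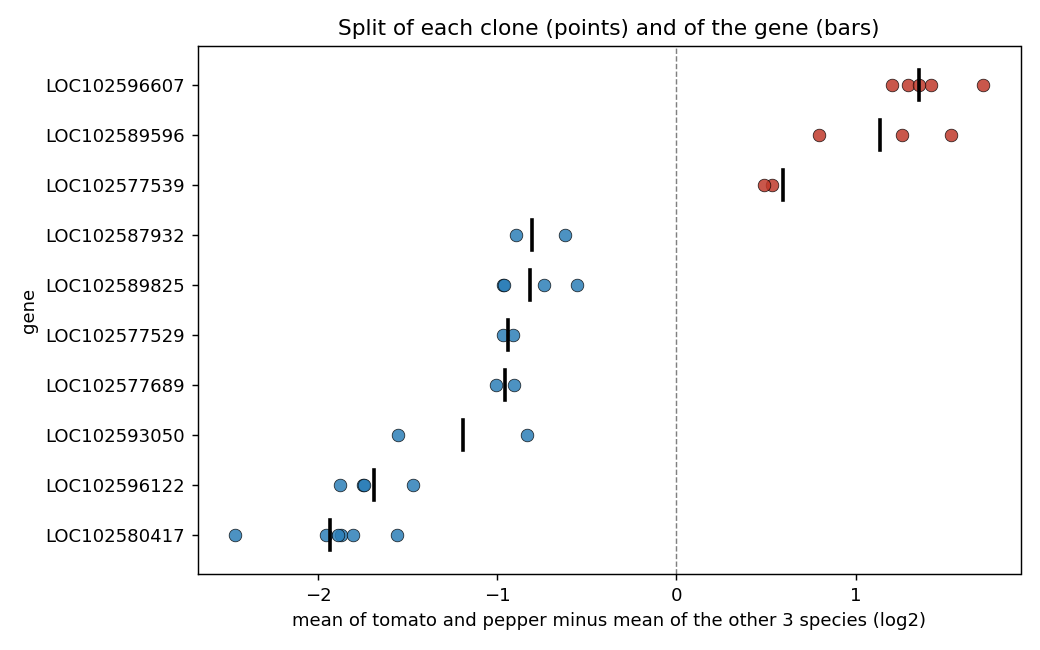
Split (x axis, log2) of each clone (points) and of the gene (black bars) for the 10 genes with several clones (y axis), red where tomato and pepper were higher and blue where they were lower. Every point lies on the side of its gene, with the widest ranges in LOC102580417, LOC102593050 and LOC102589596.

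Because the rule averaged both replicates, it was also applied to 1 replicate at a time and the chosen genes were read on the other, over the 295 locus genes with a value on all arrays. Replicates share the clones on the array, the numbers of the rule were set with both replicates known, and most of the genes taken are among the 19, so the counts are a description and no independent support of the split. On replicate 1 the rule took 16 genes, of which 14 had tomato and pepper both on the same side of all 3 other species on replicate 2. For the higher direction it was 5 of 6, beside 14.6% of all locus genes, and for the lower direction 9 of 10, beside 19.7%. Of these 14, 10 were again apart by at least 0.4. On replicate 2 the rule took 19 genes, and 18 split the same way on replicate 1, 8 of 9 in the higher direction (12.2% of all) and 10 of 10 in the lower (20.7%), with 10 of them apart by 0.4 or more. The genes taken on replicate 1 and on replicate 2 included 13 and 12 of the 19, respectively.

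**Figure D4:**
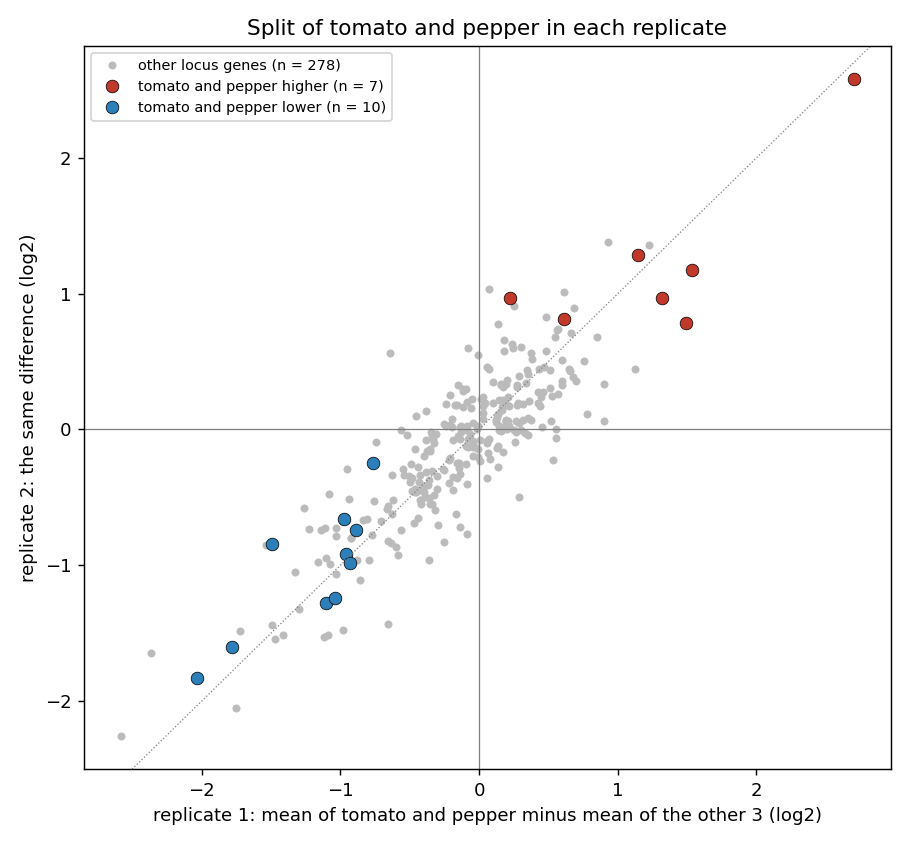
Split (log2) in replicate 1 (x axis) and replicate 2 (y axis) for locus genes with a value on all arrays, 7 with tomato and pepper higher (red), 10 with both lower (blue) and 278 others (grey), with a dotted line of equal values. All coloured points have the same sign in both replicates, and LOC102606132 lies at the top right with 2.70 and 2.58.

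Between replicates the split differed by a median of 0.20 in the 17 genes with all arrays and 0.19 in the other 278. All 5 species moved the same way from replicate 1 to replicate 2 in 5 of these 17 genes, and in 45.0% of the other genes. Potato extract and replicate cannot be told apart here.

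The rule used the means of tobacco, N. benthamiana and petunia, of which the one nearest to tomato and pepper had to clear the margin, but not the differences among them. The tests of these differences are thus not independent of the choice of genes, and they are given beside the share of all features only. In limma with 1 coefficient per species, none of the 19 genes passed an adjusted p under 0.05 in any of the 3 comparisons. At an unadjusted p under 0.05 there were 3 of 17 genes for tobacco against N. benthamiana, 3 of 19 for tobacco against petunia and 3 of 17 for N. benthamiana against petunia, near the 12.5%, 18.4% and 20.7% of all features. Among all features, 0.641% of 8429, 2.89% of 8434 and 5.29% of 8344, respectively, passed after adjustment.

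More features were called when the replicate, and thus the shared potato extract, entered as a block. With the block, tobacco and N. benthamiana differed in none of 17 genes (5.47% of all features), tobacco and petunia in 3 of 19 (13.7%), and N. benthamiana and petunia in 3 of 17 (17.0%). The shares in these genes, 15.8% and 17.6% for the latter comparisons, were close to those of all features. With the replicate as a random term none of 17 genes (4.14% of all features), 1 of 19 (12.1%) and 2 of 17 (15.6%) were called.

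Petunia was one side of every call in these genes. Its comparisons also had the larger shares of all features (13.7% and 17.0% with the block, against 5.47%). LOC102577582 was 0.87 higher in tobacco than in petunia (SE 0.18, limma with the block, adjusted p = 0.012, and 0.056 without). LOC102577483 was 0.84 higher in N. benthamiana than in petunia (SE 0.19, adjusted p = 0.013 with the block, 0.052 without). Opposite to these, LOC102589825 was highest in petunia, with tobacco at -0.61 (adjusted p = 0.048 with the block, 0.21 without) and N. benthamiana at -0.73 (adjusted p = 0.019 and 0.12 from limma) relative to it. The clones of this gene did not all follow that order. A clone had -0.02 in petunia, 0.33 in N. benthamiana and -0.13 in tobacco, whereas petunia was highest in the others. LOC102599865 was 0.68 higher in tobacco than in petunia (adjusted p = 0.031 with the block, 0.47 without), and LOC102580417 0.54 higher in N. benthamiana than in petunia (adjusted p = 0.048 and 0.21 from limma).

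LOC102606132, with the widest split, gave small differences among the 3 species. Tobacco minus N. benthamiana was -0.12 (95% confidence interval -0.54 to 0.30 in limma without the block), tobacco minus petunia -0.14 (-0.56 to 0.28) and N. benthamiana minus petunia -0.022 (-0.44 to 0.40). Intervals without the block were wider for LOC102596122, for which tobacco minus petunia was -0.21 (-1.14 to 0.72). With the block that interval was -0.65 to 0.23, beside -0.50 to 0.21 for LOC102606132.

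**Figure D5:**
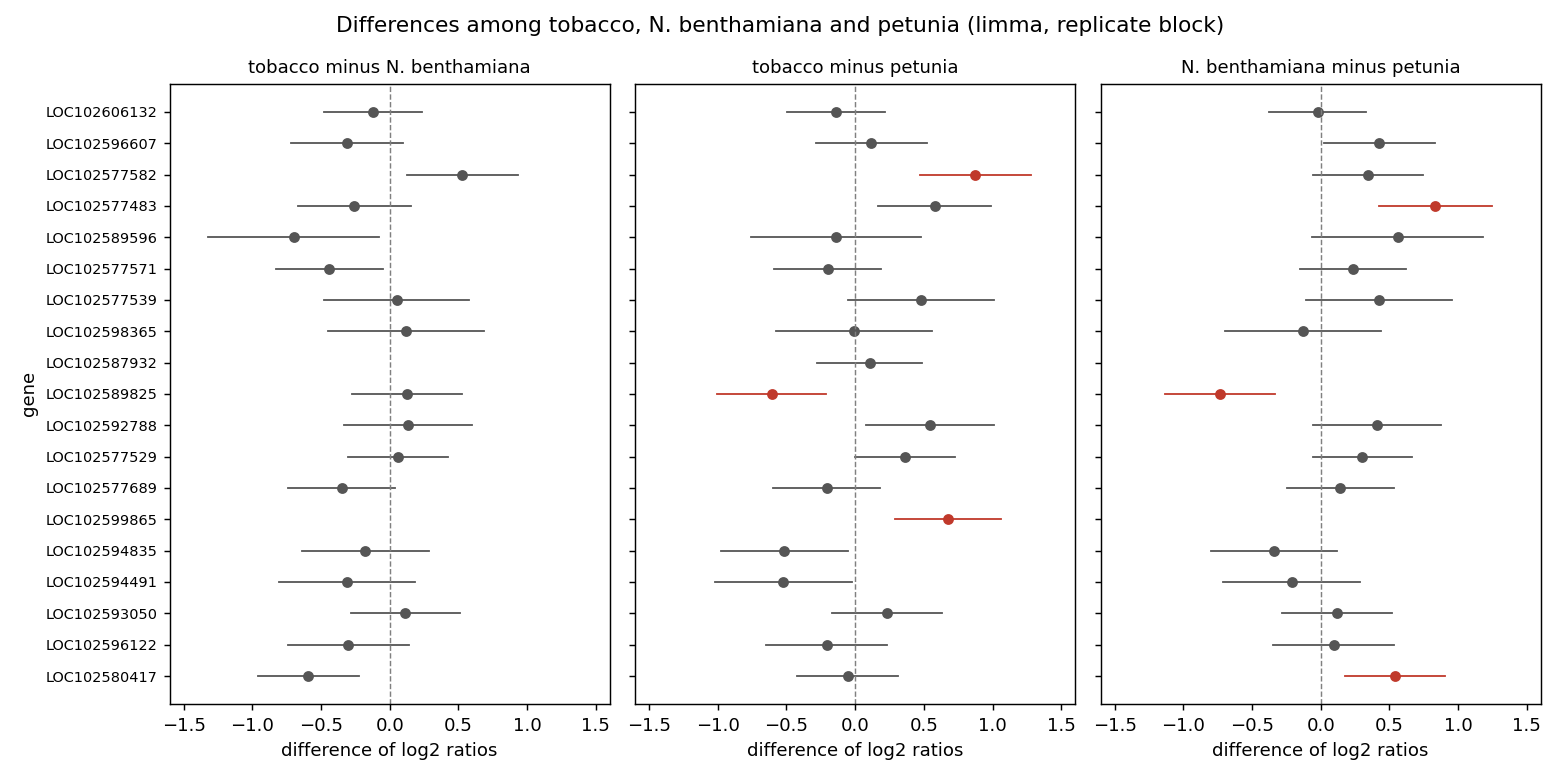
Difference of log2 ratios (x axis) between tobacco and N. benthamiana, tobacco and petunia, and N. benthamiana and petunia for each gene (y axis), with the 95% interval from limma with the replicate as a block, red where the adjusted p was under 0.05. No gene is red on the left, and 3 are red in each of the other panels. LOC102587932 and LOC102599865 have no second N. benthamiana array and appear only in the middle panel.

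The species order was not shared by the 19 genes. Among the 7 higher genes the lowest of the 3 species was petunia in 4 and tobacco in 3, and it was N. benthamiana in none. Over the other locus genes the lowest was petunia in 33.8%, tobacco in 32.5% and N. benthamiana in 33.8%. With 7 genes, nothing is read from this contrast. Among the 12 lower genes the highest was tobacco in 4, N. benthamiana in 4 and petunia in 4, beside 31.2%, 33.8% and 35.1% of the other locus genes. Tomato was above pepper in 5 of the 7 higher and 8 of the 12 lower genes, a difference that the rule held under 0.6. This count was not made over the other locus genes.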

How the data were processed

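Per spot, the deposited files hold 1 log2 ratio of both channels. The authors extracted signals with GenePix, excluded spots that were not found, too saturated or too small, subtracted the local background and normalized by quantiles with limma, also named in the submitters' processing notes with no version given in the sources used here. The direction is unstated and taken as above. No counts or single channel signals were used, and the number of arrays limits the precision.

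Spots of a gene with 1 symbol were averaged per array, and other clones over their duplicate spots, giving 14975 features. The slide layout was read from 905 spot pairs with the same sequence record, and all 905 lay on it, which is no separate check of the layout. The 1728 positions that it leaves empty held 0 values. Every column of values belonged to a sample. Tests used lmFit and eBayes of limma 3.58.1 in R 4.3.3 on all arrays with 1 coefficient per species, over features with values on both arrays of both species, with Benjamini-Hochberg adjustment over them at 0.05. Random blocks used duplicateCorrelation (statmod 1.5.0). Counts and plots used Python 3.11.15, pandas 2.3.3 and matplotlib 3.10.9.

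The labels give 1 potato extract per replicate, and after subtracting species means, arrays with the same number correlated at 0.286 to 0.677 in the 10 pairs of species (7561 features), so the replicate numbers pair the arrays. The genes, the rule and the tests were chosen with earlier results of these data known. Genes were to be named by size of split, by calls among 3 species, by nearness to the limit and by disagreement of clones. All 19 are named. The gene lists by key word were not run, since no descriptions of locus genes were used here, and leaf markers were not checked for that reason and because ratios hold no level. Alternatives changed the margin, the centring and scaling of arrays, the averaging of spots, missing values, the replicate block, the threshold and the arrays.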

Additional observations from a re-analysis of the deposited data

Results flagged for a closer look

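Species differed within a set in these genes, by limma's test with the replicate as a block. Against petunia, tobacco differed in LOC102577582 (0.87), LOC102589825 (-0.61) and LOC102599865 (0.68), and N. benthamiana differed in LOC102577483 (0.84), LOC102580417 (0.54) and LOC102589825 (-0.73). None of these 6 differences passed without the block. In a clone of LOC102589825, N. benthamiana (0.33) was above petunia (-0.02), opposite to the gene. With the replicate as a random term, LOC102577582 (adjusted p = 0.012), LOC102577483 (0.012) and the N. benthamiana difference of LOC102589825 (0.023) passed in limma, and the tobacco differences of LOC102589825 (0.059) and LOC102599865 (0.12) and that of LOC102580417 (0.059) did not. Among all features, 13.7% were called with the block for tobacco against petunia and 17.0% for N. benthamiana against petunia, close to the shares of the 19 genes. In LOC102577582, both tomato arrays were positive and both pepper arrays negative, with tomato 0.47 above pepper, and this difference was not tested. With 2 arrays per species no array could be judged against its group.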

How the results depend on the processing

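The number of genes chosen was 29 with a margin of 0.3 (20 of them lower) and 11 with a margin of 0.5 (6 lower). It was 23 on median-centred arrays (18 of them among the 19), 17 on scaled arrays (15 among the 19) and 18 with the median of clones (17 among the 19). With only clones that had a value on all 10 arrays, a setting added after seeing the data, it was 16, and LOC102577539, LOC102587932 and LOC102599865 were lost. Leaving out 1 array, or all arrays of a replicate, gave 15 to 22 genes, 5 to 9 higher and 9 to 13 lower. These were not always the same genes. Of the 19, only 10 were kept without pepper replicate 2, and all 19 without tobacco replicate 1. Without all arrays of replicate 1 the rule kept 12 of them, and without those of replicate 2 it kept 14. LOC102577483, LOC102577689, LOC102580417, LOC102594835 and LOC102606132 were chosen in all 17 settings at the margin of 0.4, LOC102577539 and LOC102587932 in 10 of them and LOC102599865 in 8. No split of the 19 genes changed its sign, and 23 of 315 moved by more than the spread between replicates. Many of the 315 could not move by this measure. Leaving out a replicate stays within that spread by its definition in the 17 genes with all arrays. Other settings left some splits identical, as in genes with a single clone. The genes were also chosen for their split, so these counts are no measure of robustness.

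Calls among all features were 54 for tobacco against N. benthamiana, 244 for tobacco against petunia and 441 for N. benthamiana against petunia. With the replicate block they were 461, 1158 and 1419, and with the block as a random term 349, 1018 and 1299. Calls among the 19 genes with the block were 0, 3 and 3, and with the random term 0, 1 and 2. At an adjusted p under 0.01 without the block there were 3, 39 and 61 calls. Scaled arrays gave 20 for tobacco against N. benthamiana. One gene, LOC102577483, was called for N. benthamiana against petunia on median-centred arrays and over features with a value on all arrays (1 call each). Without single arrays the counts ran from 0 to 32, from 11 to 287 and from 38 to 363, with 0 calls among the 19 genes. The lowest counts were without tobacco replicate 1 and, for the others, without petunia replicate 1. The cause was not tested. The counts for key word lists were not run.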

Other observations

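Among 83 genes with another symbol and a mean in all species, 7 met the same numbers (8.43%), beside 5.81% of the locus genes and 4.83% of 9044 clones without a single symbol. Tomato and pepper were higher in BCAT1, a branched-chain aminotransferase (split 1.50), in ERS, an ethylene receptor (0.75), and in PPS4 (0.63). They were lower in THF1 (-1.77), XIP1-1-BETA (-1.51), RGGA (-1.22) and R1 (-1.22). Higher values made up 2.14% and lower values 3.67% of the locus genes, against 2.61% and 2.22% of the clones without a single symbol. These shares were not tested.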
